A study of Homo sapiens with 2 samples.

Results

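The genes described here are 50 components of Wnt signalling: 19 ligands, 2 secretion factors, 8 secreted inhibitors, 7 receptors, co-receptors or their regulators, 6 destruction complex proteins, 3 dishevelled proteins and 5 planar polarity proteins. They were chosen by their place in the pathway out of 20046 protein-coding genes in GENCODE release 44, and no measured value enters the rule. The choice was made with earlier results of these data known, and other pathway genes with promoter summits are outside it. For each gene, TCF7L1 ChIP-seq summits inside the gene or within 100 kb of any of its transcription start sites (TSSs) were collected, and a summit within 2.5 kb of a TSS was called a promoter summit. The ChIP-seq was performed in HCT116 cells, a human colon adenocarcinoma line with an activating mutation in the gene for β-catenin. In both groups, endogenous TCF7L1 was depleted with the lentiviral short hairpin RNA shTCF7L1-2, and 1 µg/ml doxycycline induced a FLAG-tagged cDNA from the stably integrated plasmid pCW57.1 under puromycin selection. The TCF7L1 group expressed the wild-type protein and the TCF7L1-MUT group expressed a DNA-binding domain mutant, and chromatin from both was precipitated with anti-FLAG antibodies. There was 1 sample per group, so no test between the groups can be made, no difference has a replicate check, and all intervals given are Wilson 95% intervals that cover counting error only. The signal is that of an exogenous, induced protein, and whether the lines were single clones is not given in the sources used here. Peak lists hold no expression values, so the identity of the cells could not be checked against marker genes.

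Wnt ligands are lipid-modified secreted proteins that bind Frizzled receptors together with co-receptors such as LRP5 and LRP6, or with receptor tyrosine kinase-like proteins such as ROR1 and ROR2. Without ligand, a destruction complex built on APC and AXIN1 phosphorylates β-catenin and marks it for degradation, and with ligand the dishevelled proteins relay the signal that stops this. Stabilised β-catenin then acts in the nucleus on TCF/LEF factors, a family that includes TCF7L1, which mostly acts as a repressor and is required in several stem cell types. Other branches, used by ligands such as WNT5A and by planar polarity proteins such as PRICKLE1, control cell polarity and movement without β-catenin. The pathway maintains the stem cells of the intestinal crypt and is activated by mutation in most colorectal cancers.

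The TCF7L1 list held 3762 summits in 3663 regions and the TCF7L1-MUT list 224 summits in 204 regions. The peak files hold no read totals, and the study's sequencing statistics list both libraries at a similar depth, that of TCF7L1-MUT slightly greater. Each summit carries a fold enrichment, which sets the reads piled up there against the surrounding background, and the −log10 of a q-value.

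TCF7L1 summits lay at 13 of the 50 Wnt components and at the promoters of 6 of these. The 6 were the ligand genes WNT5A, WNT5B and WNT16, the destruction complex kinase genes GSK3B and CSNK1A1, and the planar polarity gene PRICKLE1. Another 7 had distal summits alone: the ligand genes WNT3A and WNT4, the ligand carrier WLS, the secreted inhibitor gene DKK3, the co-receptor regulator KREMEN1, and the receptor tyrosine kinase-like genes ROR1 and ROR2. The remaining 37 had none. In the TCF7L1-MUT list, 0 of the 50 had a summit in either class.

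The promoter share was 12% (5.62 to 23.8), against 4.86% of all protein-coding genes, and the share with a summit in the gene or within 100 kb was 26% (15.9 to 39.6), against 23.1%. The 100 kb share was therefore near the background. The promoter share was above it under the definition used, but fell to 2 genes, or 4% (1.10 to 13.5), when a single TSS per gene or a distance of 1 kb was used. The background fell too, to 3.41% with the 5′ end of the gene, 3.56% with the canonical TSS and 3.87% at 1 kb. At 5 kb the shares were 14% and 5.64%. They were 8% and 3.98% at a q-value of at most 0.001, and 4% and 1.92% at a fold enrichment of at least 5. For TCF7L1-MUT, the backgrounds were 0.0948% at promoters and 0.803% within 100 kb. A count of 0 of 50 allows a share of up to 7.13%, so the mutant list cannot separate these genes from the rest.

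The 13 genes held 20 summits in 20 separate regions. There was 1 summit at each of 7 genes, 2 at each of 5 and 3 at KREMEN1, and no summit was counted for more than 1 Wnt component. Inside the gene body lay 10 summits, and 0 of the 20 lay in an annotated exon of their own gene. The Wnt component was the nearest protein-coding gene by TSS for 14 of the 20 summits. Of the 14 summits that were not at a promoter of their Wnt component, 3 lay within 2.5 kb of a TSS of another protein-coding gene: WNT3A's, WNT4's and the distal summit of WNT16. None of the 20 regions overlapped a TCF7L1-MUT region, so the mutant sample gives no value for them.

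**Figure D1:**
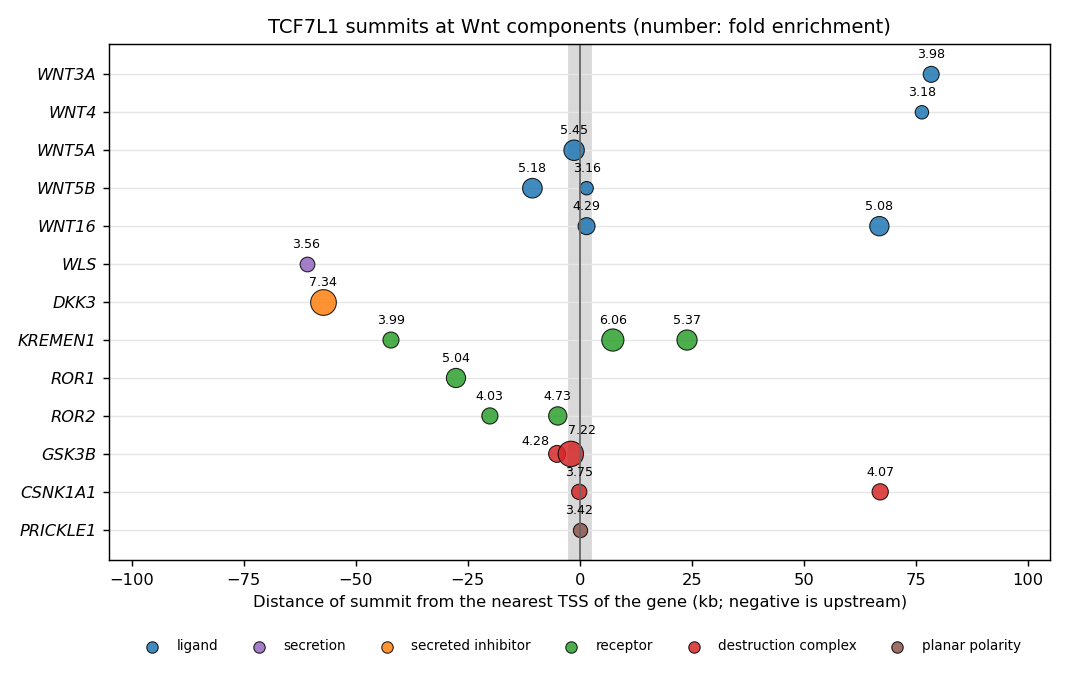
TCF7L1 summits at the 13 Wnt components that had any, by distance in kb from the nearest TSS of the gene (x axis, negative is upstream), 1 row per gene, coloured by role, with marker area growing with fold enrichment, which is printed above each point. The grey band spans 2.5 kb to either side of the TSS, and 6 genes have a summit inside it.

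The sequences under 4 of the promoter summits are shown first, since promoter summits carry the promoter count, as windows of 201 bases centred on the summit and read 5′ to 3′ on the plus strand of GRCh38/hg38. Capitals mark the TCF/LEF core word, here CTTTGNN with each N being A or T, searched on both strands, so that a match on the minus strand appears as its reverse complement. The windows are chr3:55491711-55491911 upstream of WNT5A, chr12:1576085-1576285 in WNT5B, chr7:121330418-121330618 in intron 2 of WNT16 and chr5:149551494-149551694 upstream of CSNK1A1. The WNT16 window holds the word and the other 3 do not.
WNT5A: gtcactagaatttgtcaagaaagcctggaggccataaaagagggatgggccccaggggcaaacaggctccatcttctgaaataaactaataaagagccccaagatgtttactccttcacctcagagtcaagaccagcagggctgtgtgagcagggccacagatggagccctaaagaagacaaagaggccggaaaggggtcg
WNT5B: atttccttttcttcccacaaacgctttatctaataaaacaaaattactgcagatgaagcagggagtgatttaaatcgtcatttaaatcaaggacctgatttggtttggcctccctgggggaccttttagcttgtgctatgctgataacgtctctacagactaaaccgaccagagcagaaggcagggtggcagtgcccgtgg
WNT16: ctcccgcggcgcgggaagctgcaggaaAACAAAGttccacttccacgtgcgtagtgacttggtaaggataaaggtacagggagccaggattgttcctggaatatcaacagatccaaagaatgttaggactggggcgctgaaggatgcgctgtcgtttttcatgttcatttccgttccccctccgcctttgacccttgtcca
CSNK1A1: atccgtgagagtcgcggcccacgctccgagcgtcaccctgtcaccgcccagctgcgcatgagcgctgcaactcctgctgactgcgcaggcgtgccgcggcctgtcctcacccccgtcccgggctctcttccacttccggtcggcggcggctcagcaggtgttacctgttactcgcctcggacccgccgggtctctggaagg

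Among the 19 Wnt ligand genes, 5 had a TCF7L1 summit and 3 had one at a promoter. These shares were 26.3% (11.8 to 48.8) and 15.8% (5.52 to 37.6), against 23.1% and 4.86% of all protein-coding genes. At WNT5A (ENSG00000114251.15, minus strand, 7 TSSs), which encodes a ligand of the β-catenin-independent branch, the region chr3:55491494-55492059 had its summit 1272 bp upstream of the gene's 5′ end and 4505 bp upstream of the canonical TSS. A total of 2 of its 7 TSSs were within 2.5 kb. Its fold enrichment was 5.45 and its −log10 q 11.6, which was higher in fold than 64.2% of all TCF7L1 summits. This was the highest −log10 q of the 6 promoter summits.

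WNT5B (ENSG00000111186.13, plus strand, 10 TSSs), a close paralogue of WNT5A, held 2 summits. The region chr12:1576005-1576332 was 1528 bp downstream of 1 of the 10 TSSs and 53046 bp upstream of the canonical TSS, and was enriched 3.16-fold (−log10 q 2.92). The region chr12:1605763-1606379 was stronger, at 5.18-fold (−log10 q 12.5), but lay 10571 bp upstream of the nearest TSS. The summit that made WNT5B a promoter gene was thus the weaker of the pair, and the lowest in fold of all 20.

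At WNT16 (ENSG00000002745.13, plus strand, 2 TSSs), the region chr7:121330172-121330712 had its summit 1518 bp downstream of the canonical TSS and was enriched 4.29-fold (−log10 q 3.06). The summit rested on 15 reads, the fewest of the 20. A second region, chr7:121395595-121396202, lay 66840 bp downstream of a WNT16 TSS and 468 bp from a TSS of FAM3C, and was enriched 5.08-fold (−log10 q 5.77).

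The WNT3A and WNT4 genes encode ligands with distal summits alone, both beyond the 3′ end of the gene. The WNT3A region, chr1:228085214-228085554, was 78402 bp downstream of the TSS and 2178 bp from a TSS of ARF1, and was enriched 3.98-fold (−log10 q 4.18). The WNT4 region, chr1:22053350-22053738, was 76335 bp downstream of the nearest WNT4 TSS, 30 bp from a TSS of CDC42 and inside an annotated CDC42 exon. Its fold enrichment was 3.18 and its −log10 q was 1.51, the lowest −log10 q of the 20. The other 14 ligand genes, which were WNT1, WNT2, WNT2B, WNT3, WNT6, WNT7A, WNT7B, WNT8A, WNT8B, WNT9A, WNT9B, WNT10A, WNT10B and WNT11, had no summit.

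Of the secretion factors, WLS, which carries ligands to the cell surface, had 1 summit and PORCN, the enzyme that attaches their lipid, had none. The share with a summit was 50% (9.45 to 90.5), against 23.1% of all protein-coding genes. The WLS region, chr1:68293932-68294260, was 60971 bp upstream of the gene, and was enriched 3.56-fold (−log10 q 3.28). WLS was the nearest protein-coding gene to it.

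The secreted inhibitors bind ligands, as the SFRP proteins, FRZB and WIF1 do, or act at co-receptors, as DKK2 does. Of these 8 genes, 1 had a summit, or 12.5% (2.24 to 47.1), against 23.1% of all protein-coding genes. This was DKK3, a divergent member of the Dickkopf family. Its region, chr11:12066769-12067269, was 57283 bp upstream of DKK3, 123 bp from a TSS of the long non-coding RNA ENSG00000254991, with MICAL2 the nearest protein-coding gene at 26956 bp. With 7.34-fold enrichment, a −log10 q of 20.8 and 45 reads, it was the strongest of the 20 summits on each of these measures, and ranked 293 of 3762 by fold. SFRP1, SFRP2, SFRP4, SFRP5, FRZB, WIF1 and DKK2 had none.

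Among the receptors, co-receptors and their regulators, 3 of 7 genes had summits and 0 had one at a promoter. The share with a summit was 42.9% (15.8 to 75.0), against 23.1% of all protein-coding genes. At promoters, 0 of 7 allows a share of up to 35.4%. KREMEN1, which with Dickkopf proteins removes LRP6 from the cell surface, had 3 summits. The first, in chr22:29030660-29031109, was 42127 bp upstream of the nearest TSS and 568 bp from a TSS of ZNRF3-AS1, and was enriched 3.99-fold (−log10 q 5.16). The second, in chr22:29080276-29080748, lay in intron 1, 7371 bp downstream of the nearest TSS, and was enriched 6.06-fold (−log10 q 15.1). The third, in chr22:29096870-29097258, lay in intron 2, 23931 bp downstream, and was enriched 5.37-fold (−log10 q 7.6). The upstream summit lay inside ZNRF3, which encodes a ubiquitin ligase that removes Wnt receptors, and the intron 1 summit was 93450 bp from a ZNRF3 TSS. The intronic summits were stronger in fold than 77.8% and 62.3% of all TCF7L1 summits.

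Every KREMEN1 window held the TCF/LEF core word, and DKK3, the strongest summit of the 20, held none. These are shown to set a gene with the word under each summit beside a strong summit without it. The KREMEN1 windows are chr22:29030808-29031008, chr22:29080402-29080602 and chr22:29096962-29097162, and the DKK3 window is chr11:12066952-12067152.
KREMEN1 upstream: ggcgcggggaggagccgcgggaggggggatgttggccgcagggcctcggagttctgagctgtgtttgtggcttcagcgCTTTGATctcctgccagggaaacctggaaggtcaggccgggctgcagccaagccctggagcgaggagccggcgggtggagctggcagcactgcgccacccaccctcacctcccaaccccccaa
KREMEN1 intron 1: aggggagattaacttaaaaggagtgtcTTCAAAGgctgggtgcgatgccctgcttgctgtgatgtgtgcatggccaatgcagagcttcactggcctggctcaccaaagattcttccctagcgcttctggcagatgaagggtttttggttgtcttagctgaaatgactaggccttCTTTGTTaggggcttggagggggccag
KREMEN1 intron 2: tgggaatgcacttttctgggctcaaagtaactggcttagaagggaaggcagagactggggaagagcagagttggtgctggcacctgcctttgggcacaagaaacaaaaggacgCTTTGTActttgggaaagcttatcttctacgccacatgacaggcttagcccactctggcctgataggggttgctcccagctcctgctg
DKK3 upstream: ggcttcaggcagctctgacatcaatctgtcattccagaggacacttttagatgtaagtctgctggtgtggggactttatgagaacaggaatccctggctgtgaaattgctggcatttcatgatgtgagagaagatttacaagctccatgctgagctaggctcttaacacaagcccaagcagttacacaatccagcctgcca

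ROR1 and ROR2 encode receptors for WNT5A. The ROR1 region, chr1:63746172-63746785, was 27622 bp upstream, and was enriched 5.04-fold (−log10 q 6.30). ROR2 had 2 intron 1 summits. The one in chr9:91780423-91780732 was 4912 bp upstream of an internal TSS, just outside the promoter distance, and was enriched 4.73-fold (−log10 q 4.85). Of its window's 31-base words, 92.4% occurred more than once in the genome, so these words do not place a read at this copy. The other, in chr9:91795685-91796032, was 20059 bp upstream of the nearest TSS in unique sequence, and was enriched 4.03-fold (−log10 q 3.09). The co-receptor genes LRP5 and LRP6, KREMEN2 and the ligand receptor gene RYK had no summit.

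In the destruction complex, 2 of 6 genes had summits, both with one at a promoter. In each class this was 33.3% (9.68 to 70.001), against 4.86% of all protein-coding genes at promoters and 23.1% within 100 kb. Both genes encode kinases that phosphorylate β-catenin. GSK3B (ENSG00000082701.17, minus strand, 30 TSSs) had its stronger summit in chr3:120004008-120004468, in intron 1, where the signal was enriched 7.22-fold (−log10 q 10.6). It ranked 312 of 3762 by fold, the highest of the promoter summits, and stood on a local background of 2.32 reads, the lowest of the 20. It was 2002 bp upstream of 1 of the 30 TSSs and 90206 bp from the canonical TSS. A second summit, in chr3:119978199-119978535 in intron 2, was 5068 bp upstream of an internal TSS, and was enriched 4.28-fold (−log10 q 3.27). Of the 31-base words around the summits, 35.1% at the first and 19.3% at the second occurred more than once in the genome.

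CSNK1A1 (ENSG00000113712.19, minus strand, 15 TSSs) had a promoter summit in chr5:149551440-149551845, 123 bp upstream of its 5′ end, within 2.5 kb of 12 of its 15 TSSs and of a TSS of ARHGEF37. Its fold enrichment was 3.75 and its −log10 q 3.47, higher in fold than 11.4% of TCF7L1 summits. The window had a GC content of 69.7%, the highest of the promoter windows. A distal summit in chr5:149445889-149446208, 67029 bp downstream of the nearest CSNK1A1 TSS and 15445 bp from MIR145, was enriched 4.07-fold (−log10 q 5.09). The scaffold genes APC, APC2 and AXIN1, and GSK3A, the paralogue of GSK3B, had no summit.

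The 3 dishevelled genes DVL1, DVL2 and DVL3, which pass the signal from receptors to both branches, had no summit. A count of 0 of 3 allows a share of up to 56.1%, against 23.1% of all protein-coding genes. Among the 5 planar polarity genes, 1 had a summit, which was at a promoter. In each class this was 20% (3.62 to 62.4), against 4.86% of all protein-coding genes at promoters and 23.1% within 100 kb. The gene was PRICKLE1 (ENSG00000139174.12, minus strand, 18 TSSs), which encodes a cytoplasmic polarity protein. The region chr12:42483578-42484485 had its summit 58 bp upstream of an internal TSS, with 8 of the 18 TSSs within 2.5 kb, and 105693 bp from the canonical TSS. Its fold enrichment was 3.42 and its −log10 q 2.23, higher in fold than 5.24% of TCF7L1 summits and the lowest −log10 q of the 6 promoter summits. The window held a run of 37 identical bases, and it was the only 1 of 3666 TCF7L1 windows on the chromosomes with a run this long. VANGL1, VANGL2, CELSR1 and DAAM1 had none.

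The promoter calls depended on which TSSs were counted. With TSSs of all transcripts, 6 genes were called. With the 5′ end of the gene alone, 2 were called, CSNK1A1 and WNT5A, against 3.41% of all protein-coding genes. With the canonical TSS alone, 2 were called, CSNK1A1 and WNT16, against 3.56%. With a distance of 1 kb, 2 were called, CSNK1A1 and PRICKLE1, against 3.87%. CSNK1A1 was called under each of these 4 definitions, but not when summits were limited to a fold enrichment of at least 5, which left WNT5A and GSK3B against 1.92%. The 6 promoter genes had medians of 12.5 TSSs and 87906 bp in length, and the 37 genes without a summit had 4 TSSs and 33363 bp. Over all protein-coding genes the same medians were 8 TSSs and 82253 bp for promoter genes and 5 TSSs and 24366.5 bp for genes without a summit. Taken whole, the 50 Wnt components had medians of 5 TSSs and 53546.5 bp, and all protein-coding genes had 5 TSSs and 27424 bp. The part of TSS number and gene length in the promoter share was not tested, and which of these TSSs are used in HCT116 cells was not measured here.

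**Figure D2:**
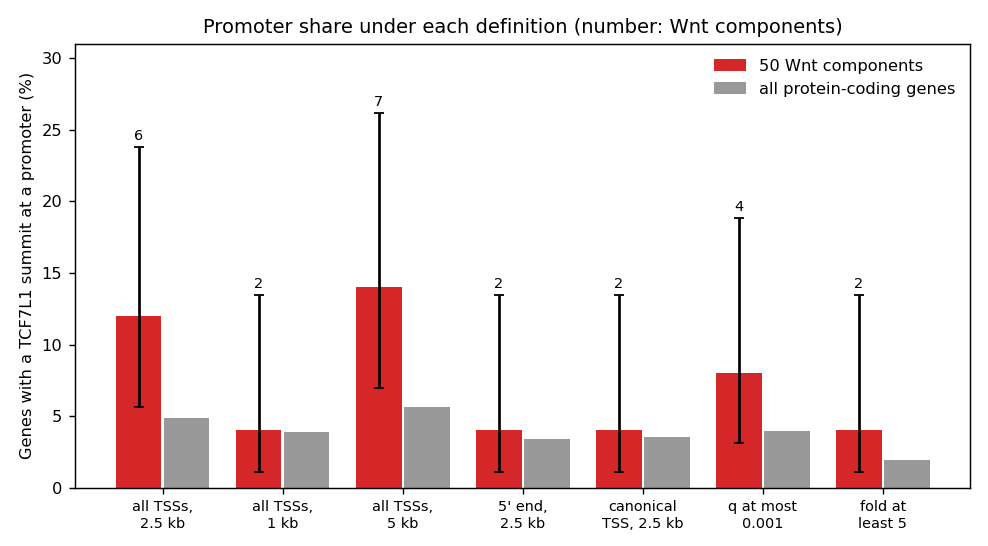
Percent of genes with a TCF7L1 promoter summit (y axis) under each definition of a promoter or limit on summits, for the 50 Wnt components (red bars, with Wilson 95% intervals and the number of genes above) and all 20046 protein-coding genes (grey bars). The Wnt components stand at 12% with TSSs of all transcripts and at 4% with the 5′ end, the canonical TSS or a distance of 1 kb.

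The share of Wnt components with a summit within 1 kb of a TSS was 4%, against 3.87% of all genes. Within 10 kb it was 16% (8.34 to 28.5) against 6.97%. Within 25 kb it was 16% against 10.4%, and within 50 kb it was 18% against 14.9%. The 2 shares thus drew apart up to 10 kb, and from 25 to 250 kb they were closer than at 10 kb. Within 250 kb, 44% of Wnt components and 41.2% of all genes had a summit. The shares were 68% and 61.6% within 500 kb, and 88% and 81.4% within 1000 kb. The median distance from a TSS to the nearest summit was 307122 bp for the 50 genes and 342854.5 bp for all protein-coding genes. Between 2.5 and 25 kb, only ROR2 and KREMEN1 were added.

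**Figure D3:**
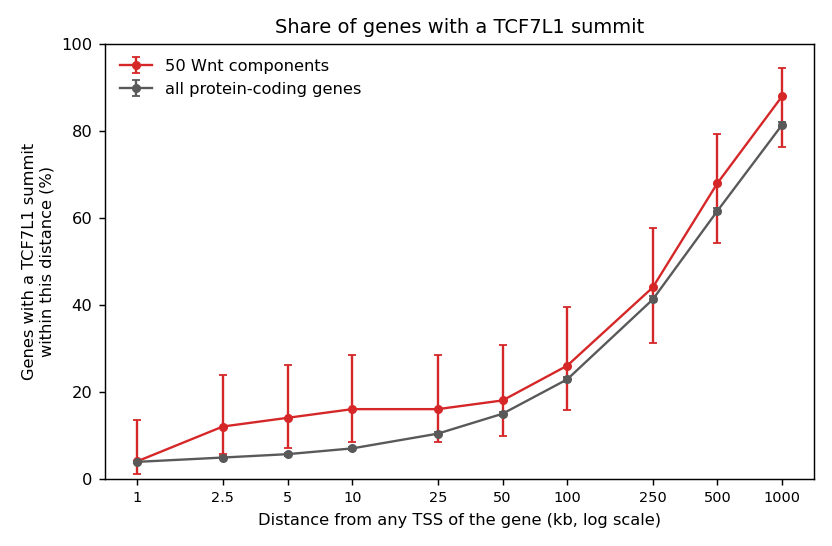
Percent of genes with a TCF7L1 summit within a given distance of a TSS (x axis in kb, log scale), for the 50 Wnt components with Wilson 95% intervals and for all 20046 protein-coding genes. The curve of the Wnt components is above that of all genes at every distance shown. The curves are at 4% and 3.87% at 1 kb, 16% and 6.97% at 10 kb, and 26% and 22.9% at 100 kb.

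For the 37 genes without a summit, the nearest TCF7L1 summit was 129891 bp (WNT8A) to 3478238 bp (AXIN1) from a TSS, with a median of 458707 bp. Just outside the limit of 100 kb were WNT8A at 129891 bp, WNT9A at 137468 bp, DVL2 at 180730 bp, WIF1 at 185673 bp and WNT2 at 198219 bp, and just inside were WNT4 at 76335 bp and WNT3A at 78402 bp. No gene lay between 78402 and 129891 bp. Around the promoter limit, GSK3B at 2002 bp was the last inside and ROR2 at 4912 bp the first outside. The nearest TCF7L1-MUT summit was 705395 bp (DVL1) or more away for the 44 genes with one on their chromosome, and the other 6 genes are on chromosome 12, which had none.

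The summits at Wnt components were of ordinary strength for this list. Their fold enrichment ran from 3.16 to 7.34 with a median of 4.28, against a median of 4.98 over all 3762 summits, and 12 of 20 were below that median. Their −log10 q had a median of 4.97 against 5.44. They held a median of 22 reads against 20, and their local background had a median of 4.67 reads against 3.29. The 6 promoter summits had a median fold of 4.02 and the other 14 a median of 4.51. Over TCF7L1 summits on the chromosomes, the medians were 4.59 at promoters and 5.09 elsewhere. There a promoter summit is one near a TSS of any protein-coding gene, which 3 of the 14 also were. Reads and backgrounds were solved from the deposited values and are on this library's own scale.

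**Figure D4:**
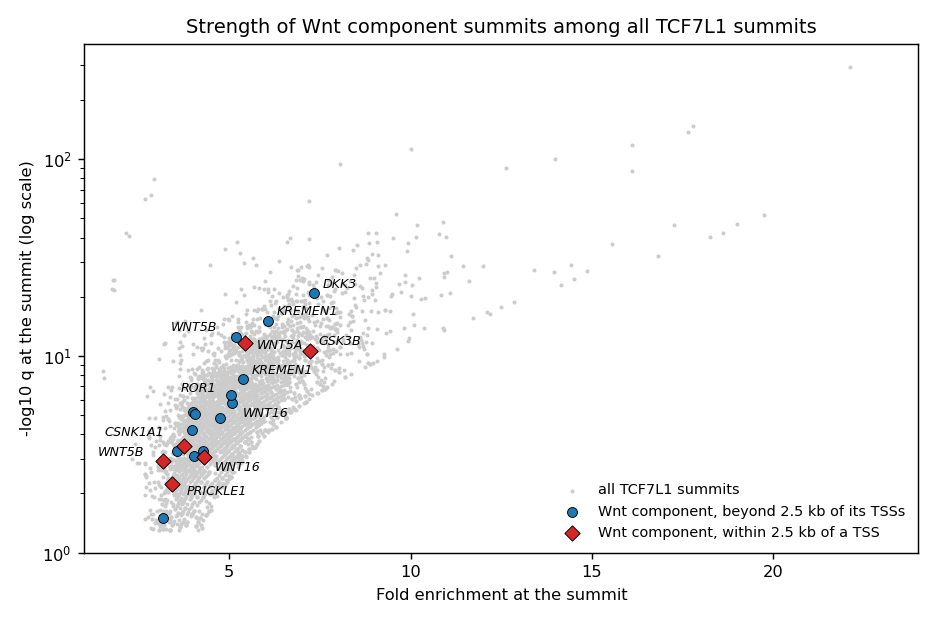
Fold enrichment (x axis) and −log10 q (y axis, log scale) at every TCF7L1 summit (grey), with the 20 summits at Wnt components in colour and those within 2.5 kb of a TSS as red diamonds. They lie within the cloud of all summits, from a fold of 3.16 at WNT5B to 7.34 at DKK3.

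**Figure D5:**
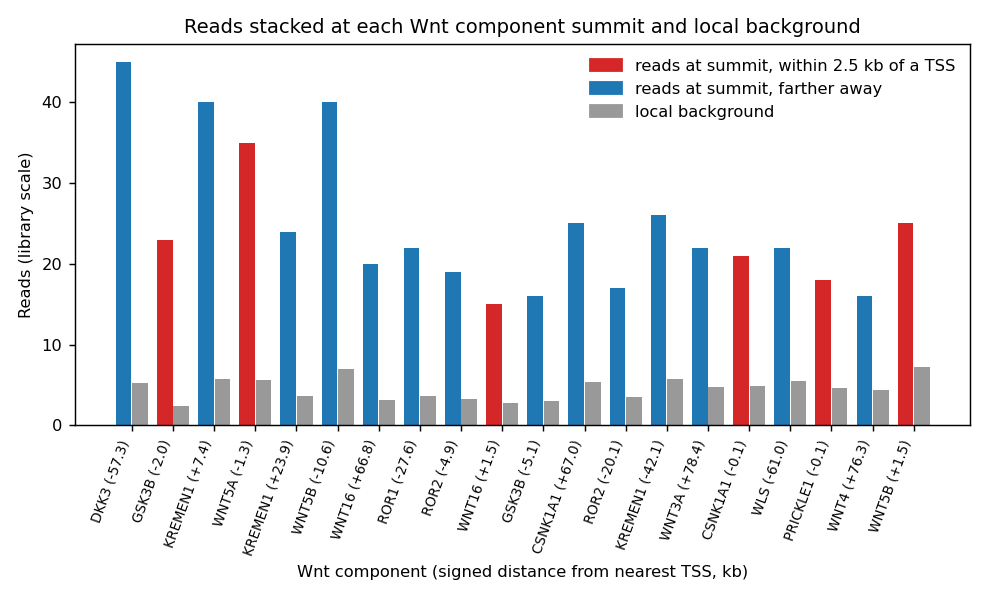
Reads stacked at the summit and local background in reads for the 20 summits at Wnt components, (y axis, reads on this library's scale), ordered by falling fold enrichment, with the signed distance from the nearest TSS in kb beside each gene name. Red bars are summits within 2.5 kb of a TSS and blue bars the others, and the Wnt component summits hold 15 to 45 reads over backgrounds of 2.32 to 7.22.

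The TCF/LEF core word was present in 7 of 20 windows, or 35.0% (18.1 to 56.7), against 26.8% of the 3666 TCF7L1 windows on the chromosomes. It was in 5.81% of windows of the same length at the canonical TSSs of 20033 protein-coding genes. Those TSS windows were not matched to the TCF7L1 windows in base composition, which alone can change such a share. Of the 7 windows with the word, the WNT3A and WNT4 windows, the WNT16 promoter window and the 3 KREMEN1 windows are described. Distances in the remaining window are not given. In the 6 windows described, the word centre was 16 bp from the summit at KREMEN1 intron 2 and 19 bp at KREMEN1 upstream. It was 37 bp away at WNT3A, 65 bp at WNT4 and 70 bp at WNT16, and KREMEN1 intron 1 held 2 copies at 70 and 77 bp. At promoters 2 of 6 windows held it, against 23.9% of all TCF7L1 promoter windows, and elsewhere 5 of 14, against 27.8%. In the whole list a promoter window is one near a TSS of any protein-coding gene. By that rule 3 of the 14, WNT3A's, WNT4's and the distal one of WNT16, would count as promoter windows. The Wnt component shares were near those of the whole list.

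Other short words were searched in the same windows on both strands. TTTNAN, with G or T as the first N and A or T as the last, which a core word with A after its G contains, was in 9 of 20 windows against 53.4% of all TCF7L1 windows and 18.1% of the windows at canonical TSSs. TATTTAC or TGTTTAC, a forkhead-type word, was in 2, both at promoters and 1 of them at WNT5A, against 12.6% and 2.08%. TGACTCA or TGAGTCA, the AP-1 word, was in 3, or 15.0% (5.24 to 36.04), against 7.31% and 2.13%: the stronger WNT5B summit, the ROR2 summit in unique sequence and the distal CSNK1A1 summit. NGATAN, with A or T as the first N and A or G as the last, the GATA word, was in 5 against 31.8% and 10.0%. GGGCGG, the GC box, was in 4 against 14.4% and 53.7%. The GC content of the 20 windows ran from 44.8% to 73.1% with a median of 52.2%, and the median over all TCF7L1 windows was 51.7%. A match says that these letters are present, not that a factor is bound.

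Other genes of the pathway, 59 in number, were counted in the same way. They include Frizzled, LGR, R-spondin, TCF/LEF, corepressor, kinase and target genes, and also further secreted inhibitor and planar polarity genes. A promoter summit was present at 11, or 18.6% (10.7 to 30.4), against 4.86% of all protein-coding genes. These were FZD1, FZD2, FZD8, FZD10, LGR5, DKK1, AXIN2, TLE3, TLE4, CSNK1G3 and TRABD2A. A summit in the gene or within 100 kb was present at 27, or 45.8% (33.7 to 58.3), against 23.1%. A TCF7L1-MUT summit was present at 0, which allows up to 6.11%. The corresponding shares of the 50 Wnt components were lower, at 12% (5.62 to 23.8) and 26% (15.9 to 39.6). Both pairs of intervals overlapped, which does not show that the shares are alike, and the difference was not tested. The lists are not separate in their summits, since 2 of the KREMEN1 summits, the upstream one and that in intron 1, also counted for ZNRF3 among the 59. The list includes genes known to have summits in these data when it was written, so its shares are not independent evidence.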

How the data were processed

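ChIP-seq peak lists of 2 samples, TCF7L1 and TCF7L1-MUT, were grouped by the genotype in their labels, 1 sample per group. The authors trimmed reads with skewer, checked them with FastQC, used BWA (v0.7.12) for mapping to GRCh38/hg38 and MACS2 (v2.1.0) for peak calling on each sample. How an input library, a q-value limit, duplicates and multi-mapping reads were handled is not given in the sources used here, and each could add or remove regions, mainly in repeated sequence. The lists go down to a −log10 q of 1.31 for TCF7L1 and 1.37 for TCF7L1-MUT.

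The deposited fold enrichment is a ratio, reads at the summit over those expected locally, each with a pseudocount of 1. The deposited −log10 p-value and −log10 q-value are the peak caller's. The deposited score repeats the −log10 q-value and was not used.

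Summits were assigned to genes with GENCODE release 44, in coordinates counted from 1, and negative distances are upstream. The canonical TSS is that of the Ensembl canonical transcript. Read numbers and backgrounds were recovered by solving the fold and a Poisson p-value together, within 0.001 of the deposited −log10 p for 100% of TCF7L1 summits. Copies of 31-base words were counted over 194 sequences. Scripts used Python 3.11.15, pandas 2.3.3, SciPy 1.17.1 and pysam 0.24.0 and were tested on simulated data. No p-value was computed.

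The genes and lists were chosen with earlier results of these data known. Every gene with a promoter summit was named with its values, as were up to 10 genes with distal summits alone, which covered all 7, and genes without a summit were named only. The distances of genes next to the limits, the extreme distances and the extremes of strength were picked out after their values were seen. Alternatives were other distances, one TSS per gene, stricter summits and other window widths. Window sequences are printed for some summits only, and the others are not reported here.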

Additional observations from a re-analysis of the deposited data

How the results depend on the processing

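The 6 counts and shares behind the text were recomputed under the alternatives, giving 47 values, of which 29 stayed within 1.5 times the main count or within its interval and 18 moved. The promoter count of 6 Wnt components became 2 with a distance of 1 kb, with the 5′ end of the gene alone, with a fold enrichment of at least 5, and with the canonical TSS alone, an alternative chosen after seeing the data. It was 7 at 5 kb and 4 at a q-value of at most 0.001. The background share of 4.86% became 3.87%, 3.41%, 1.92% and 3.56% under the first 4 of these, 5.64% at 5 kb and 3.98% at the stricter q-value. The count of 13 genes within 100 kb became 8 at 10 kb and 7 at a fold of at least 5, and its background of 23.1% became 15.5% at 50 kb, 9.32% at 10 kb, 21.4% with the 5′ end, 19.97% at the stricter q-value, 11.6% at a fold of at least 5 and 21.1% with the canonical TSS. Each of these alternatives counts fewer summits, fewer TSSs or another distance. The TCF7L1-MUT count of 0 stayed 0 in every alternative run. The share of windows with the core word was 20% within 50 bp of the summit and 50% within 250 bp. All TCF7L1 windows gave 15.2% and 48.5%. It was 35.3% at the stricter q-value and 37.5% at a fold of at least 5. Another word, TTTNAN as given above, was in 45% against 53.4%. These values lay within the interval of the main value. Window width and word change the share in themselves, so this does not show that it is stable.

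No paired analysis was possible because there was 1 sample per group, and none was left out for the same reason. The peak lists give values at listed regions alone, so a gene without a summit is one without a listed region, not one shown to be unbound.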
